A study of Mus musculus with 20 samples.

Results

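Ileal mucosa of mice with DNBS colitis was set against ileal mucosa of healthy mice, 5 samples each out of the 20 of the series, and all 571 assays with at least 3 values in both groups are described, out of 648 on the panel. The 571 assays measure 514 genes, and the panel is the TaqMan OpenArray panel for mouse inflammation, read by real-time PCR. Mice of the DNBS group received DNBS (dinitrobenzene sulfonic acid, a hapten that damages the colon when given into the rectum) intrarectally and phosphate-buffered saline (PBS) by mouth, and the labels call them sick controls. Healthy controls received PBS by both routes. The other 10 samples, from DNBS mice given oral CEC or oral Nissle, enter only through the estimate of the spread between samples and as levels of Atrn. For Nissle 3, 4 and 5, 1 label names the healthy controls, against their titles and treatment labels. Strain, sex, age, dose and time after DNBS are not given in the sources used here. The study description speaks of RNA pooled from mice, so it is not known whether a sample is 1 mouse. The spread behind each p-value is that between these samples and may be technical.

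DNBS binds to proteins of the bowel wall and sets off a T-cell and neutrophil response that is centred on the colon. The ileum lies upstream of the instilled hapten, and its lining of absorptive, Paneth and goblet cells is kept by bone morphogenetic protein gradients and the cytokine IL-22. The same lining makes the chemokine CCL25, which draws lymphocytes to the small bowel. In acute bowel inflammation, epithelium and macrophages release IL-6, IL-1 and CXC chemokines, and neutrophils follow the CXC chemokines out of the blood. Neutrophils carry calprotectin, the pair of proteins encoded by S100a8 and S100a9.

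The measurement is a cycle threshold (Ct), the PCR cycle at which the fluorescence of an assay crosses a limit. The relative level used here is the sample's mean Ct minus the Ct of the assay, a log2 value with the sample mean at 0 if each cycle doubles the product, and levels of different assays cannot be set against each other. In the 10 samples, 570 to 593 assays gave a value, and the mean Ct was 22.8 to 24.1 in the DNBS group and 23.0 to 23.9 in the healthy group. Epithelial markers were measured in every sample. In the tests below, a difference is the DNBS mean minus the healthy mean. Adjusted p-values are from limma over all 571 assays, with the spread estimated from all 20 samples unless the fit to both groups alone is named. The samples DNBS 5 and healthy 5 stood apart. Between consecutive runs of 54 assays in the table, median deviations from the assay means ranged over 2.43 in DNBS 5 and 2.86 in healthy 5, against 0.21 to 1.70 in the other 8. For some assays, the difference without one of these samples is given as well.

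One gene fell. Atrn encodes attractin, a glycoprotein of the cell surface and of serum known from the mahogany coat-colour mouse. In the DNBS samples 1 to 5, its relative level was -1.16, 0.37, -0.05, -0.12 and -0.71. In the healthy samples 1b, 3, 4, 5 and 6 it was 2.89, 3.91, 3.34, 1.39 and 2.02. The highest DNBS sample, DNBS 2, was below the lowest healthy one, healthy 5. Atrn was 8.25-fold lower in the DNBS group (log2 difference -3.04, SE 0.45, adjusted p = 0.000627), and it was the 1 assay of 571 that passed (0.175%). It passed in 38 of 39 alternative settings and not without normalization. The oral-treatment groups, labelled as given DNBS too, stood at 0.51 ± 0.66 (CEC) and 0.26 ± 0.67 (Nissle; SD, n = 5 each), between the DNBS group at -0.34 ± 0.60 and the healthy group at 2.71 ± 1.01. The Nissle mean includes the 3 samples with the contradictory label, and with those left out of the fit Atrn still passed.

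With the spread taken from both groups alone, 9 of 571 assays passed (1.58%). Those higher with DNBS were Il6, Cxcl2, S100a8, Il1b and both Ccl7 assays, and those lower were Atrn, Sectm1b and Socs2. The error in the fit to all 20 samples includes the spread within the CEC and Nissle groups. The SD of Il6 was 2.41 in the CEC and 3.33 in the Nissle group, against 0.79 and 0.76 in the DNBS and healthy groups. In the fit to both groups alone, Atrn, Il6 and Cxcl2 passed whichever of the 10 samples was left out, S100a8 passed in 6 of these 10 fits, Sectm1b in 3, and Il1b, Socs2 and each Ccl7 assay in 2. The number of assays called was 39 without DNBS 5, 15 without healthy 5 and 3 to 5 without any one of the other 8 samples. With the sample number as a replicate block, 2 passed in this fit, Atrn and Il6. Only the samples numbered 3, 4 and 5 enter the difference then. The fit to all samples but Nissle 1 called 6 assays, Atrn, Cxcl2, Il6, Socs2, Sectm1b and S100a8. Leaving out DNBS 5 instead, it called 7, Atrn, Chst4, Chi3l3, Sectm1b, Socs2, Ltf and Hif1a. Leaving out healthy 5, it called 1, Atrn.

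**Figure D1:**
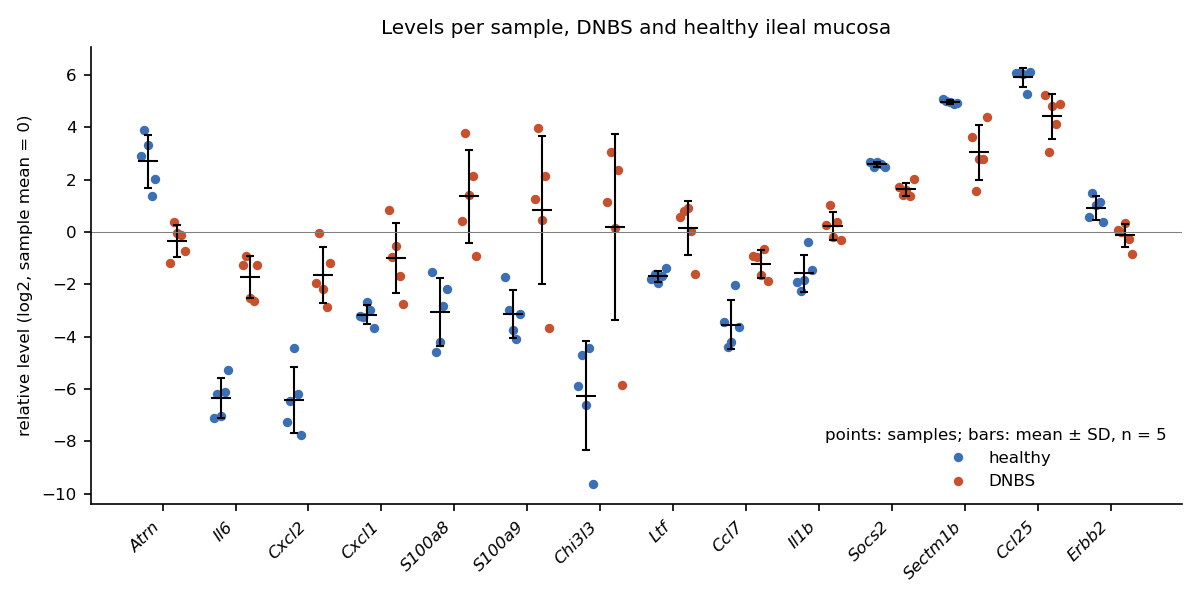
Relative levels (log2, sample mean at 0) of 14 genes in each of the 5 healthy samples (blue) and 5 DNBS samples (red), with mean ± SD. Atrn, Socs2, Sectm1b, Ccl25 and Erbb2 lay lower in all DNBS samples than in all healthy samples. In Cxcl1, S100a9, Chi3l3 and Ltf, the lowest DNBS point, DNBS 5, lay within the healthy range.

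Il6 encodes interleukin-6, a cytokine that signals through gp130 and drives the acute-phase response. With assay Il6_Mm00446190_m1, the DNBS samples stood at -1.27, -0.93, -2.50, -2.63 and -1.26. The healthy samples stood at -7.11, -6.17, -7.02, -6.11 and -5.26. The groups were separated by more than 2 cycles, and the mean was 24.6-fold higher with DNBS (difference 4.62, SE 0.51, adjusted p = 0.000459 in the fit to both groups alone). With all 20 samples the same difference had an SE of 1.22 and did not pass (adjusted p = 0.123). The panel holds 2 more Il6 assays. Il6_Mm01210732_g1 gave a value in all 5 DNBS samples, at -3.09 to 0.15, and in 2 healthy samples, at -5.39 and -5.97. Il6_Mm01210733_m1 gave -3.86 to -1.54 in the DNBS group and 3 healthy values, -7.46, -6.20 and 18.05, the last from a Ct of 5.74 in healthy 5. With that early value included, the mean difference of this assay was -4.06 (SE 3.75, adjusted p = 0.677), and with Ct 40 kept as a value the difference was 3.21. Without it, the mean of the other 2 healthy values lay 4.24 below the DNBS mean, with no test.

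Among the neutrophil-recruiting CXC chemokines, which bind the receptor CXCR2, Cxcl2 passed in the fit to both groups alone, and the others passed in neither fit. Cxcl2 levels were -1.93, -0.03, -2.18, -2.88 and -1.19 in the DNBS samples. In the healthy samples they were -7.26, -6.45, -4.44, -6.19 and -7.75. The groups did not overlap, and Cxcl2 was 27.4-fold higher with DNBS (difference 4.78, SE 0.68, adjusted p = 0.00327 in the fit to both groups alone). With all 20 samples the SE was 1.27 and the adjusted p = 0.123. Cxcl1 did not pass in either fit, with differences of 2.15 (SE 0.78) and 2.47 (SE 0.89) in its 2 assays (adjusted p = 0.159 for both). Its DNBS levels in the first assay were 0.86, -0.94, -0.54, -1.68 and -2.73, against -3.67 to -2.66 in the healthy group. DNBS 5 lay inside the healthy range and the other DNBS samples above it. Cxcl3 differed by 2.69 (SE 1.28, adjusted p = 0.332) and Cxcl5, a chemokine of epithelial cells, by 0.99 (SE 0.73, adjusted p = 0.568). Cxcl5 differed by 1.53 without DNBS 5 and by 0.86 without healthy 5. Of the 7 measured genes for neutrophil-recruiting chemokines and colony-stimulating factors, 6 were higher and 1, the platelet chemokine gene Ppbp (-0.45, adjusted p = 0.774), lower with DNBS, with a median difference of 0.99. Over all 514 genes, 232 were higher and 282 lower, and the median was -0.07. Averaged over the 7 genes, the DNBS samples lay at -2.15 to -1.28 and the healthy samples at -3.48 to -3.10, so the groups did not overlap.

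The promoters of Il6 and of the 3 CXC chemokine genes are shown because these genes all had higher means with DNBS and all 4 hold a match to the consensus site of the transcription factor NF-kB. The sequences are from RefSeq (GRCm38.p6), windows of 300 bases around each gene's start, all on the plus strand: chr5:30012864-30013163 for Il6, chr5:90890995-90891294 for Cxcl1, chr5:90903649-90903948 for Cxcl2 and chr5:90785851-90786150 for Cxcl3. Capitals mark the match, searched on both strands. In the chemokine genes it is an 11-base run in which matches of both strands overlap.
Il6: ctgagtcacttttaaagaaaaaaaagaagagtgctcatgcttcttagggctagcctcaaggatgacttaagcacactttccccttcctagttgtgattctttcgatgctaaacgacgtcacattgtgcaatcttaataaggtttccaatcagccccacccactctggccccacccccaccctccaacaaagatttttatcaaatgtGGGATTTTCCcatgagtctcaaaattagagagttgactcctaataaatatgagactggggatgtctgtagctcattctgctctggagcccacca
Cxcl1: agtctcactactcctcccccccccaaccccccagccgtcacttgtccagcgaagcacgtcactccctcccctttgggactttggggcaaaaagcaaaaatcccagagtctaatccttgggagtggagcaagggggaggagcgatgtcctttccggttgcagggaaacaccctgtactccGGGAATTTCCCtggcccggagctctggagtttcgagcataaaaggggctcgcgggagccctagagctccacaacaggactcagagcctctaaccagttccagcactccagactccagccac
Cxcl2: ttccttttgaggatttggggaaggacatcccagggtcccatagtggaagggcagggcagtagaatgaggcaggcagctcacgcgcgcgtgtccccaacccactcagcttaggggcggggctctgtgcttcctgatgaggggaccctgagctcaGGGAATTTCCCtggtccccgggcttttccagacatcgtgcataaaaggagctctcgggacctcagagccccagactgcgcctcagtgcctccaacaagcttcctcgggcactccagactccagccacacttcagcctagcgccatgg
Cxcl3: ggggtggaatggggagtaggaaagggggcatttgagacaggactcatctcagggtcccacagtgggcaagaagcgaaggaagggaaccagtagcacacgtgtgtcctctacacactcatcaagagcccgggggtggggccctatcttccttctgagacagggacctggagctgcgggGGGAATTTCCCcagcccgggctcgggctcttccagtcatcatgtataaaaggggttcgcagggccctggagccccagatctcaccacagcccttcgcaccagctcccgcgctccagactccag
The match begins 44 bases before the start in Il6, 71 in Cxcl1, 97 in Cxcl2 and 73 in Cxcl3. Of the 20 genes with the largest positive differences, 17 had a promoter in the table, and these 4 held a match. A match was found for 60 of the 399 tested genes with a promoter and in 8.46% of all 32851 promoter windows of the table. A match describes letters in this window and shows no binding.

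Averaged over neutrophil marker genes, 4 of the 5 DNBS samples lay above every healthy sample. S100a8, with assay S100a8_Mm00496696_g1, stood at 0.42, 3.77, 1.42, 2.13 and -0.92 in the DNBS samples. The healthy samples stood at -1.54, -4.57, -4.18, -2.83 and -2.17. No DNBS sample reached down into the healthy range, and the mean was 21.4-fold higher (difference 4.42, SE 0.82, adjusted p = 0.0190 in the fit to both groups alone, 0.123 with all 20 samples). The second S100a8 assay differed by 3.83 (SE 1.40, adjusted p = 0.159), with overlapping groups, and passed in neither fit. S100a9 levels were 1.25, 3.97, 0.48, 2.14 and -3.67 in the DNBS group and -4.08 to -1.71 in the healthy group, so that DNBS 5 lay among the healthy samples. Its difference was 3.96 (SE 1.45, adjusted p = 0.159), and 5.08 (SE 1.38, adjusted p = 0.0622) without DNBS 5. Without healthy 5, the S100a9 difference was 3.72 (SE 1.57, adjusted p = 0.181). Ltf encodes lactoferrin, an iron-binding protein of neutrophil granules. Its DNBS levels were 0.59, 0.80, 0.92, 0.04 and -1.60, against -1.96 to -1.39 in the healthy group. The Ltf difference was 1.83 (SE 0.57, adjusted p = 0.123) and passed at 2.27 (SE 0.54, adjusted p = 0.0381) without DNBS 5. Without healthy 5, the Ltf difference did not pass (1.84, SE 0.61, adjusted p = 0.124). Cxcr2, the receptor gene for these chemokines (listed as Il8rb), differed by 2.45 (SE 1.19, adjusted p = 0.356), by 3.30 without DNBS 5 and by 1.88 without healthy 5.

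All 6 measured neutrophil cell-type markers had positive differences, from 0.09 to 3.96 with a median of 2.14. Those of Camp (0.14, SE 0.83) and Fpr1 (0.09, SE 0.58) were smaller than their SE. Of the 6, 3 had an unadjusted p under 0.05 (limma, all 20 samples). In the same direction, 38 of all 571 assays did so (6.65%), and 45 did in the opposite direction (7.88%). The 6-gene average per sample was -0.76, 0.41, -0.54, -0.76 and -3.03 in the DNBS samples and -2.05, -2.97, -3.71, -3.33 and -2.86 in the healthy samples. DNBS 5 lay within the healthy range and the other 4 above it. In a wider list of 9 genes of neutrophil function, 7 were higher and 2 lower, and the median was 0.19. The 2 were the integrin gene Itgam (-0.18), shared with macrophages, and the receptor gene Cxcr1 (-0.51, a single-exon assay). Without normalization Itgam differed by 0.046, where the median over all assays was 0.16. More neutrophils and more of these RNAs per cell cannot be told apart in a bulk sample.

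**Figure D2:**
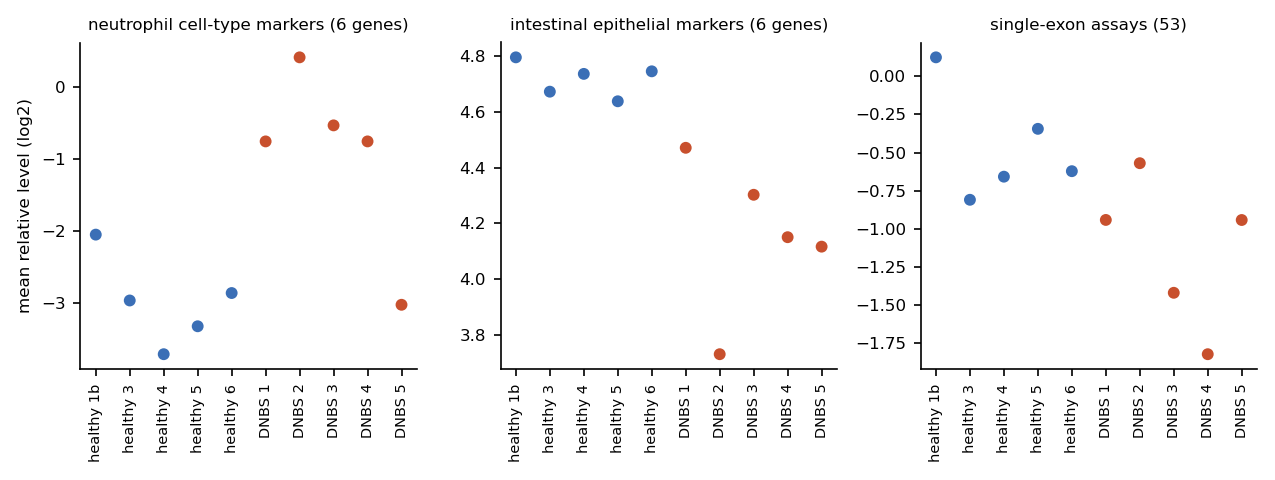
Mean relative level (log2) per sample of 6 neutrophil markers, 6 intestinal epithelial markers and 53 single-exon assays, in 5 healthy (blue) and 5 DNBS (red) samples. The axes differ between the panels and do not start at 0. DNBS 5 lay among the healthy samples for neutrophil markers and below them for epithelial markers.

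Among macrophage genes, the largest difference on the panel belonged to Chi3l3 (current symbol Chil3), which encodes Ym1, a chitinase-like protein of alternatively activated macrophages and myeloid cells. It stood at 1.14, 3.06, 0.16, 2.39 and -5.84 in the DNBS samples. The healthy samples stood at -5.90, -4.71, -6.61, -4.43 and -9.62. DNBS 5 again lay with the healthy samples. The mean was 86.6-fold higher with DNBS (difference 6.44, SE 1.89, adjusted p = 0.123). It passed without DNBS 5 (7.94, SE 1.78, adjusted p = 0.0381) and not without healthy 5 (6.89, SE 2.03, adjusted p = 0.109). The ending of its assay name marks an assay that may also detect a closely related gene. Cd14, the co-receptor for bacterial lipopolysaccharide, was higher in every DNBS sample (0.10 to 1.02) than in any healthy sample (-0.89 to -0.03), with a difference of 1.0 (SE 0.55, adjusted p = 0.410). The haemoglobin scavenger receptor gene Cd163 differed by 1.06 (SE 0.50, adjusted p = 0.332). Of the 11 measured macrophage, monocyte and dendritic cell markers, 8 were higher and 3 lower (median 0.44), against 232 and 282 of all 514 genes. Chi3l3 and Cd163 had an unadjusted p under 0.05, both higher (over all assays, 6.65% higher and 7.88% lower).

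CC chemokines differed in both directions. Ccl7, a monocyte chemoattractant, was measured by 2 assays. With Ccl7_Mm01308393_g1 the DNBS samples stood at -0.29, -0.68, -0.67, -0.59 and -2.01 and the healthy samples at -2.80, -2.37, -3.34, -2.38 and -2.87. The lowest DNBS sample, DNBS 5, was still above the highest healthy one. The 2 assays gave differences of 1.90 (SE 0.38) and 2.33 (SE 0.48), each with an adjusted p = 0.0305 in the fit to both groups alone, and 0.224 and 0.163 with all 20 samples. Ccl2, the main CCR2 ligand, differed by 1.79 (SE 0.81, adjusted p = 0.308) and the eotaxin gene Ccl24 by 1.57 (SE 0.57, adjusted p = 0.159). Ccl6, a chemokine of myeloid cells, differed by -0.90 (SE 0.32, adjusted p = 0.159), with overlapping groups, and Ccl25 is given with the epithelium. Over the 16 measured CC chemokine genes, 8 were higher and 8 lower with a median of -0.09, and 3 higher and 2 lower had an unadjusted p under 0.05 (over all assays, 6.65% and 7.88%).

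P-selectin and an enzyme of leukocyte entry were higher in most DNBS samples. Selp encodes P-selectin, on which leukocytes roll along activated endothelium. It stood at -2.44, -2.15, -2.11, -1.71 and -3.43 in the DNBS samples and between -4.14 and -3.77 in the healthy samples, without overlap (difference 1.59, SE 0.59, adjusted p = 0.159). Chst4, the sulfotransferase that completes L-selectin ligands of high endothelial venules, differed by 1.88 (SE 0.56, adjusted p = 0.123). It passed without DNBS 5 (2.41, SE 0.49, adjusted p = 0.0239) and not without healthy 5 (1.55, SE 0.57, adjusted p = 0.142). The Chst4 assay lies within a single exon. Sele, encoding E-selectin and named after its values were seen, gave a value in 5 DNBS and 2 healthy samples.

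In the interleukin-1 family, Il1b was higher in every DNBS sample than in any healthy sample with 1 of its 2 assays. Il1b_Mm99999061_mH stood at 0.27, 1.03, -0.18, 0.37 and -0.30 in the DNBS group and at -1.91, -2.24, -1.84, -0.40 and -1.46 in the healthy group. DNBS 5 lay just above healthy 5. The difference was 1.81 (SE 0.39, adjusted p = 0.0336 in the fit to both groups alone, 0.298 with all 20 samples). The second assay gave 1.71 (SE 1.05, adjusted p = 0.485), with overlapping groups. The name of the first assay ends as that of Chi3l3 does, which marks an assay that may also detect a closely related gene. Il18, a constitutive epithelial cytokine, differed by 1.03 (SE 0.39, adjusted p = 0.171), and with the sample number as a replicate block by 1.71 (SE 0.30), which passed (adjusted p = 0.0211). With the block, healthy 1b and healthy 6 do not enter the difference. Casp1, the protease that matures both cytokines, differed by -0.54 (SE 0.26, adjusted p = 0.332). Of 15 measured genes of the family, 9 were higher and 6 lower (median 0.32).

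The cytokines of T-helper cells and the usual inflammatory enzymes did not pass. Il22, made by innate lymphoid and Th17 cells and acting on epithelium, ranged from -5.60 to 0.12 in the DNBS group and from -8.40 to -3.96 in the healthy group (difference 3.65, SE 1.33, adjusted p = 0.159). The lowest DNBS samples, 3 and 1, lay below healthy 1b and above the other healthy samples. Its assay also covers the copy Iltifb, and the 2 genes cannot be told apart. Il17a differed by 0.49 (SE 0.88), the 2 Ifng assays by 0.70 (SE 0.79) and 0.63 (SE 0.59), and the 2 Il12b assays by -0.47 (SE 0.85) and 0.25 (SE 0.78), with adjusted p from 0.677 to 0.918. Healthy 5 was the lowest sample for both Ifng assays, and without it they differed by 0.0081 and 0.25, and Il17a by 0.24. Without DNBS 5, the Ifng assays differed by 1.10 and 0.93, and Il17a by 0.83. The inducible nitric oxide synthase gene Nos2 differed by 0.78 (SE 0.47, adjusted p = 0.476), by 0.33 without healthy 5 and by 1.08 without DNBS 5. The cyclooxygenase gene Ptgs2 differed by 1.08 (SE 0.59, adjusted p = 0.410). Tnf and Il10 gave no value in any of the 10 samples. Of 15 measured Th1 genes 6 were higher and 9 lower, and of 13 Th17 and IL-22 genes 7 were higher and 6 lower. Osm, an IL-6-family cytokine, differed by 1.80 (SE 0.79, adjusted p = 0.298), whereas Lif of the same family differed by 0.14 (SE 0.37, adjusted p = 0.913).

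**Figure D3:**
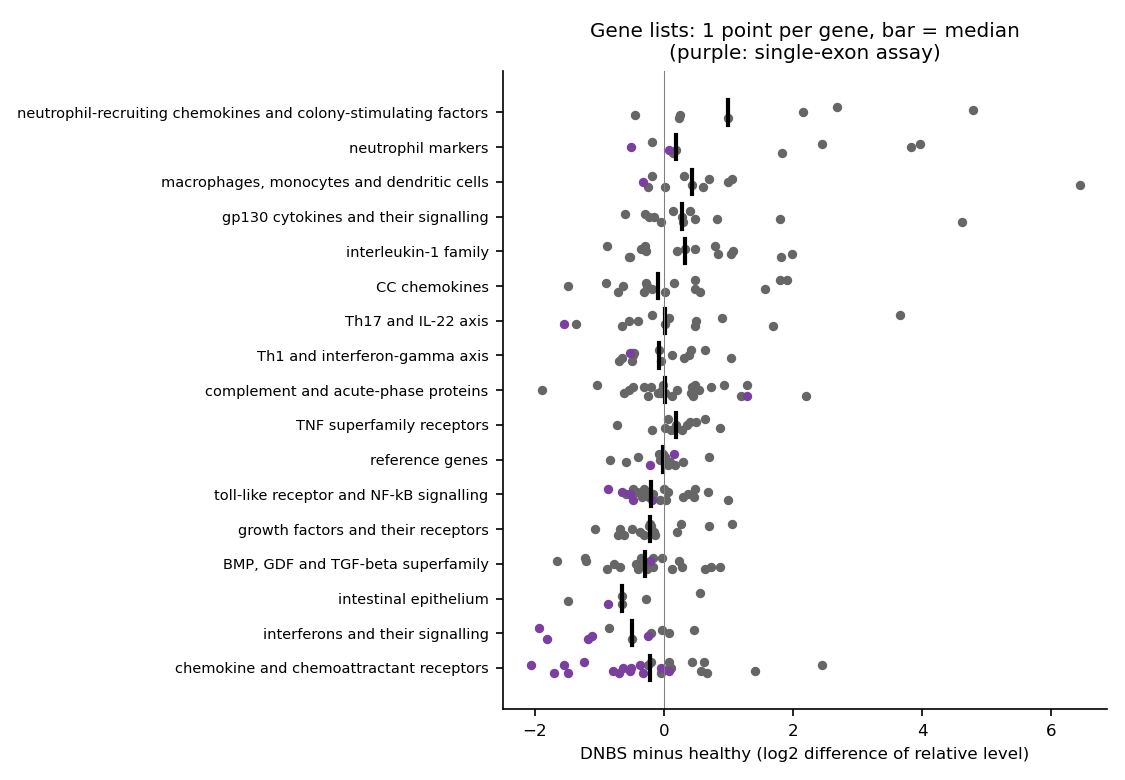
Difference between the DNBS and healthy group means (log2) for each gene of 17 lists, 1 point per gene, with the median of each list as a black bar and single-exon assays in purple. The medians ran from -0.65 for the intestinal epithelium to 0.99 for the neutrophil-recruiting chemokines and colony-stimulating factors, and the purple points lay mostly below 0.

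Most epithelial genes were lower with DNBS, none of them past the threshold. Ccl25, the chemokine of small-intestinal epithelium that draws CCR9-bearing lymphocytes, stood at 5.26, 3.08, 4.80, 4.13 and 4.88 in the DNBS samples. The healthy samples stood at 6.08, 6.07, 6.04, 5.26 and 6.11. DNBS 1 lay just below healthy 5, and the mean was 2.80-fold lower (difference -1.49, SE 0.49, adjusted p = 0.151). Il22ra1, the epithelial subunit of the IL-22 receptor, was at 1.16 to 1.86 in the DNBS group and 1.96 to 2.23 in the healthy group (difference -0.66, SE 0.23, adjusted p = 0.159). The decoy receptor gene Il22ra2 differed by -1.36 (SE 0.65, adjusted p = 0.332). The flagellin receptor gene Tlr5 differed by -0.86 (SE 0.31, adjusted p = 0.159) in a single-exon assay. Apoa1, the apolipoprotein of absorptive cells, differed by -0.65 (SE 0.45, adjusted p = 0.544). It differed by -1.08 without healthy 5, by -0.57 without DNBS 5 and by 0.085 with quantile normalization. Reg3g, an antimicrobial lectin gene of Paneth cells and enterocytes, differed in the other direction, by 0.56 (SE 0.32, adjusted p = 0.439). Of 6 measured epithelial markers, 5 were lower and 1 higher (median -0.65), against 282 of all 514 genes lower, and 3 were lower with an unadjusted p under 0.05 (7.88% over all assays). The 6-marker average was 4.47, 3.73, 4.30, 4.15 and 4.12 in the DNBS samples and 4.64 to 4.79 in the healthy samples, lowest in DNBS 2. That sample also had the highest neutrophil average. The part of a changed mix of cells in these differences was not tested.

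Among other genes with lower levels, Socs2 and Sectm1b had a narrow spread in the healthy group. Socs2 encodes a suppressor of growth hormone and cytokine signalling. It stood at 1.72, 1.42, 1.62, 1.40 and 2.03 in the DNBS samples and at 2.67, 2.50, 2.68, 2.61 and 2.48 in the healthy samples. The healthy SD was 0.09, and the difference of -0.95 (1.93-fold lower) passed in the fit to both groups alone (SE 0.21, adjusted p = 0.0336) and not with all 20 samples (adjusted p = 0.123). Sectm1b, a transmembrane and secreted protein gene, stood at 3.65, 1.59, 2.78, 2.80 and 4.40 against 5.08, 5.02, 4.99, 4.88 and 4.95. The DNBS samples were spread widely, whereas the healthy samples lay close together. Sectm1b was 3.84-fold lower (difference -1.94, SE 0.41, adjusted p = 0.0336 in the fit to both groups alone). Erbb2, an epidermal growth factor receptor family member, stood at -0.82 to 0.35 with DNBS and 0.39 to 1.51 in the healthy group (difference -1.07, SE 0.31, adjusted p = 0.123). The phospholipase gene Pla2g4c differed by -2.36 (SE 0.91, adjusted p = 0.187). The 3 Hdac5 assays, for a class II histone deacetylase, gave -1.10, -0.71 and -0.55. Growth factor genes and their receptors were lower in 13 of 17 cases (median -0.22), and BMP, GDF and TGF-beta genes in 16 of 22 (median -0.29), against 282 of all 514 genes. At an unadjusted p under 0.05, 2 growth factor genes were lower and 1 higher (Hgf, 0.69), and 3 of the BMP list were lower (7.88% of all assays lower, 6.65% higher). The 3 tested Hgf assays had differences from 0.24 to 0.69, and the list took the highest.

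Described next are 5 more genes among the assays of smallest unadjusted p, which were higher with DNBS and did not pass (adjusted p = 0.123 to 0.147 with all 20 samples). In the lists that hold Hif1a and Akt1, 5 of 9 hypoxia, nitric oxide and redox genes and 1 of 4 PI3 kinase and phospholipase genes were higher. Hif1a, the oxygen-regulated transcription factor gene, stood at 3.16, 3.96, 2.99, 3.63 and 2.19 with DNBS and 1.72 to 2.48 in the healthy group (difference 1.11, SE 0.34). DNBS 5 alone lay within the healthy range, and Hif1a passed without that sample (1.36, SE 0.32, adjusted p = 0.0381). Without healthy 5, Hif1a did not pass (1.16, SE 0.36, adjusted p = 0.116). Akt1, the kinase downstream of PI3 kinase, differed by 0.63 (SE 0.18) without overlap. Tgm2, the cross-linking enzyme transglutaminase, differed by 0.70 (SE 0.21), the reelin receptor gene Lrp8 by 1.25 (SE 0.39), and Anxa1, whose product annexin A1 limits neutrophil entry, by 0.91 (SE 0.30). Among acute-phase genes, the lipopolysaccharide-binding protein gene Lbp differed by 1.19 (SE 0.40, adjusted p = 0.159) and Saa3 by 2.19 (SE 1.25, adjusted p = 0.431). Saa3 differed by 2.97 without DNBS 5 and by 2.05 without healthy 5. The complement gene C2 differed by -1.04 (SE 0.37, adjusted p = 0.159). Complement and acute-phase genes together were split 14 higher to 13 lower (median 0.02).

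In 24 of the 552 assays with a value in all 10 samples, the groups did not overlap. All DNBS samples lay above all healthy samples in 10 of them (1.81%): Il6, Cxcl2, 1 of 2 S100a8 assays, both Ccl7 assays, 1 of 2 Il1b assays, Cd14, Selp, Akt1 and the lipopolysaccharide-degrading enzyme gene Aoah. All lay below in 14 (2.54%), among them Atrn, Socs2, Sectm1b, Erbb2, Ccl25, Il22ra1, Tlr5 and C2.

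**Figure D4:**
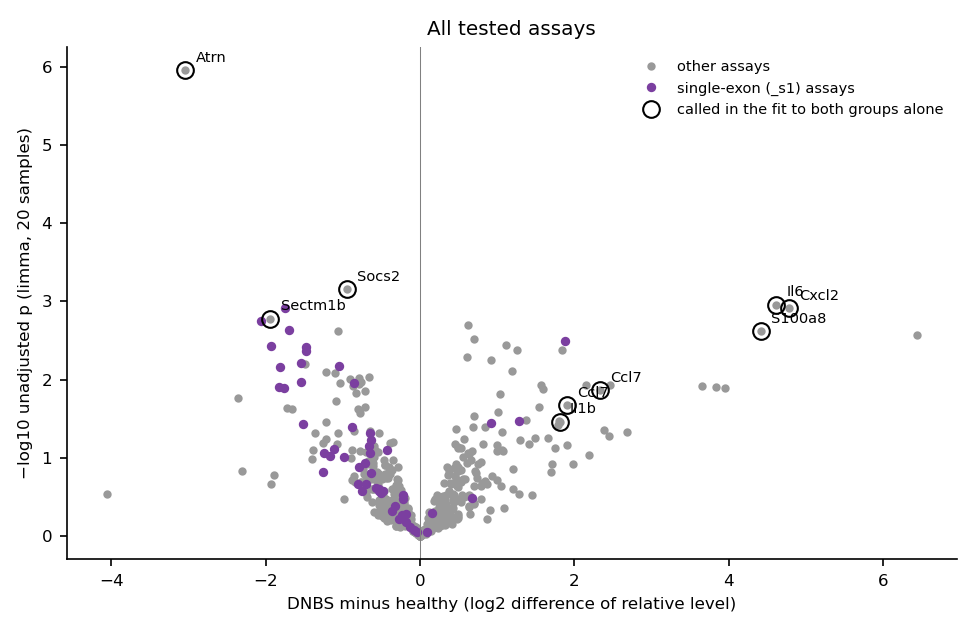
Difference of means (DNBS minus healthy, log2) against the -log10 unadjusted p of limma with all 20 samples, 1 point per tested assay, single-exon assays in purple and the 9 assays called in the fit to both groups alone circled. Atrn stands apart at a difference of -3.04, and the high side reaches further out, to 6.44, than the low side.

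Many of the lower values came from assays within a single exon (name ending s1), which can also amplify genomic DNA. Of the 53 tested, 47 were lower and 6 higher with DNBS (median -0.65), against a median of -0.01 in 460 exon-junction assays. Such assays included those for the sodium channel Scn9a (-1.75), the chemokine receptors Ccr1l1 (-2.06), Ccr3 (-1.70) and Ccr8 (-1.48), and interferon beta (Ifnb1, -1.93), each with an adjusted p = 0.123. Measured across an exon junction, Ccr3 differed by -0.26 (SE 0.88). Of 6 genes with assays of both kinds, the single-exon assay had the lower difference in 3, Ccr3 among them, and the higher in 3, such as Cxcr3 (-0.53 against -0.63) and Hrh1 (-0.63 against -0.84). The mean over the 53 assays was -0.94, -0.57, -1.42, -1.83 and -0.94 in the DNBS samples and 0.13, -0.81, -0.66, -0.34 and -0.62 in the healthy samples. DNBS 2 overlapped with the healthy samples, and healthy 1b was highest. Chemokine and chemoattractant receptor genes, 14 of 26 measured this way, had a median of -0.22, and of 0.27 without them. Interferon genes had a median of -0.49, and of -0.11 without single-exon assays. Genomic DNA was not measured, and its part in these differences was not tested.

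Of 44 genes with more than 1 tested assay, 33 had differences of the same sign in all their assays. Where at least 1 assay differed by 1 or more, this held for 11 of 12 genes, with Il6 as the exception through the assay with the early healthy value. Some assays gave a value in only part of the samples. Per sample, 581 to 593 assays gave a value in the DNBS group and 570 to 586 in the healthy group. Of 67 assays with a value in some of the 10 samples, 41 had more values in the DNBS group, 20 in the healthy group and 6 equally many. Fgf23, a phosphate-regulating hormone gene, gave a value in 5 DNBS samples (-7.70 to -4.25) and 0 healthy ones (Fisher's exact test, p = 0.00794, adjusted 0.127 over the 16 assays that could pass). Csf3, encoding the granulocyte colony-stimulating factor G-CSF, gave values in 5 against 1 (Fisher's exact test, p = 0.0476, adjusted 0.381) and in 5 against 2 samples in its 2 assays. None of the 16 passed after adjustment. The 29 assays without a value in any of the 10 samples were not tested.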

How the data were processed

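Ileal mucosa RNA of 20 mouse samples in 4 groups was profiled by TaqMan OpenArray PCR. RNA was isolated with the mirVana kit and had a mean integrity number above 9, per the labels' protocols. The deposited table holds raw, non-normalized Ct values, per the file headers. Baseline, threshold and averaging of wells are not given in the sources used here. Groups follow the labels for intrarectal and oral treatment. A Ct of 40 was taken as missing (10.0% of values in the 10 samples). Levels are minus the Ct, centred in each sample on the mean of the 544 assays with a value in all 20 samples, so a constant shift between samples cancels. Symbols were updated through RefSeq (17 renamed, 1 unmatched).

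limma 3.58.1 (R 4.3.3) was fitted to 4 group means over all 20 samples, with a trended empirical Bayes prior, two-sided, and Benjamini-Hochberg adjustment at 0.05 over 571 assays. The median SE was 0.416. Differences between samples of 1 group had an SD of 0.94 to 1.78 (DNBS) and 0.83 to 1.77 (healthy), and no pair held the same values. Gene lists took 1 assay per gene and were described by counts and medians, without a test. The fit was tested on simulated data. Members and lists were chosen with earlier results of these data known. Named were called assays, those of smallest p or largest difference, usual readouts, and up to 4 members of a list. Outside this rule, Aoah, Apoa1, Camp, Ccl2, Cd1d1, Csf2, Cxcr1, Fpr1, Itgam, Lif, Ltbp4, Ppbp, Saa3 and Sele were chosen after their values were seen. A result on 1 item withheld for evaluation is not reported here. Alternatives covered normalization, missing values, the samples fitted, weights and each sample left out.

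DNBS and healthy samples share the numbers 3, 4 and 5. No label ties a number to a litter or day. Deviations of same-numbered samples from their group means correlated at 0.19, 0.19 and 0.52. The 0.52 came from DNBS 5 and healthy 5, the samples that stood apart. DNBS 3 and DNBS 5 correlated best with the healthy sample of the same number, and DNBS 4 with healthy 3. As an alternative setting, the samples were treated as paired in a fit with the replicate block. With the block, 2 assays passed, Atrn (-3.29, adjusted p = 0.0211) and Il18. Il6 (3.90, adjusted p = 0.423) and Cxcl2 (2.99, adjusted p = 0.516) did not pass with it.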

Additional observations from a re-analysis of the deposited data

Results flagged for a closer look

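Examined were 251 groups of 4 or 5 values, from the named assays and from the averages of gene lists. Of these, 15 (5.98%) held a sample whose gap to its nearest neighbour took up most of the range of the group, where chance gives about 1 in 20. Healthy 5 was the sample apart in 7 of them, DNBS 5 and healthy 1b in 3 each, and healthy 4 and healthy 6 in 1 each. Healthy 5 was low for Ccl25 (5.26, the others 6.04 or higher), Hdac5_Mm00515917_m1 (-1.99), Apoa1_Mm00437569_m1 (6.40) and both Ifng assays (-7.71 and -3.79). It was high for C2 (2.25) and Ltbp4_Mm00723639_g1 (2.96). DNBS 5 was low for Ccl7_Mm01308393_g1 (-2.01, the others -0.68 or higher), Ccl2 (-2.91) and Tgm2 (4.56). Healthy 1b was low for Ptgs2 (-4.60), Il12b_Mm00434174_m1 (-7.18) and Casp1 (4.42). Healthy 4 was low for Cebpb (-2.29) and healthy 6 for Cd1d1 (-2.21), both measured with single-exon assays.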

How the results depend on the processing

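The call of Atrn was lost without normalization (adjusted p = 0.109), where 0 assays passed and the median of all differences moved from -0.07 to 0.16. It held in the other 38 settings, with differences of -3.37 to -2.75. The number of assays called was 9 with both groups alone, 101 with array weights (49 higher, 52 lower), 2 with the replicate block and 1 to 7 with 1 sample left out: 7 without DNBS 5 and 6 without Nissle 1. In the fit to both groups alone it was 3 to 39 with 1 sample left out, 22 with sections centred, 2 with the replicate block, 82 with array weights and 4 without normalization. Settings applied to both groups alone, the Il6 mean without its early value, centring of sections and leaving out the 3 samples of widest section shifts were added after the data were seen. Of the log2 differences, 18 changed sign under a setting, all of assays that did not pass. Il6_Mm01210733_m1 turned to 3.21 with Ct 40 kept and 1.93 with array weights. Lif turned to -0.01 without healthy 1b and -0.030 without healthy 3, in a range of -0.030 to 0.32 with 1 sample left out. Il12b_Mm99999067_m1 turned to -0.28 with Ct over 30 removed, -0.27 with array weights, -1.11 with the replicate block, and -0.10, -0.08 and -0.19 without DNBS 2, healthy 1b or healthy 6 (range -0.19 to 0.70). Csf2_Mm00438328_m1 turned to -0.55 without the 3 samples of widest section shifts. Ccr3_Mm01216172_m1 turned to 0.51 with Ct over 30 removed, 0.16 with the replicate block, and 0.45 and 0.07 without DNBS 3 or healthy 6 (range -0.56 to 0.45). Apoa1_Mm00437569_m1 turned to 0.085 with quantile normalization. Itgam turned to 0.046 without normalization and, with DNBS 5, healthy 5 and the next widest sample left out, to 0.13. The cause of these changes was not tested. The precision is limited by 5 samples a group.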
